A study of Mus with 16 samples.

Results

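The genes described here are 10 widely used markers of astrocytes, read in the P6 forebrain (cortex and hippocampus) of mice with and without *Kdm5c*. They were chosen by name and taken as rows of the count table by their Ensembl identifiers, 10 of 54219 genes in all, of which 17866 passed the filter on low counts and were tested. All 10 passed that filter. *Kdm5c* lies on the X chromosome and encodes a demethylase of histone H3 lysine 4. The 4 groups of 4 animals each were, in males, WT and *Kdm5c*-KO animals and, in females, WT and *Kdm5c*-HET animals. The mutant allele was a constitutive deletion made with Cre, present in every cell of the mutants and not only in astrocytes. *Kdm5c*-KO males were hemizygous for it and *Kdm5c*-HET females heterozygous, so the latter keep a WT copy. All animals shared a mixed C57BL/6J and 129S1/SvImJ background, were collected at P6, and came from 3 litters. The table does not pair identifiers with names beyond these 10 and the genes the study listed as changed, so the *Kdm5c* transcript itself was not analysed here.

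Astrocytes are the glia that take up glutamate, buffer water and ions, feed and supply lipid to neurons, and ensheath synapses and blood vessels. In the rodent cortex they arise mainly around birth from radial glia, and in the first postnatal weeks they multiply and switch on their mature genes. Whole-tissue RNA was measured, so fewer astrocytes and less RNA per astrocyte cannot be told apart in any value below. Several markers are also made elsewhere: *Sox9*, *Slc1a3*, and *Glul* in radial glia and other progenitors, *Apoe* in microglia, and *Glul* and *S100b* in part of the oligodendrocyte lineage.

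By role, the genes were as follows, with positions in GRCm38. Of glutamate handling, *Slc1a2* (ENSMUSG00000005089, chromosome 2, 102658239 to 102790784) encodes GLT-1, the main glutamate transporter of mature astrocytes. *Slc1a3* (ENSMUSG00000005360, chromosome 15, 8634124 to 8710807) encodes GLAST, which radial glia and young astrocytes carry early. *Glul* (ENSMUSG00000026473, chromosome 1, 153899929 to 153909723) encodes glutamine synthetase, which turns the glutamate taken up into glutamine. *Aqp4* (ENSMUSG00000024411, chromosome 18, 15389394 to 15410982) encodes the water channel of the endfeet on vessels. *Gfap* (ENSMUSG00000020932, chromosome 11, 102887336 to 102897200) encodes an intermediate filament, and *S100b* (ENSMUSG00000033208, chromosome 10, 76253836 to 76261319) a calcium-binding protein. *Aldoc* (ENSMUSG00000017390, chromosome 11, 78323073 to 78327781) encodes a glycolytic aldolase and *Aldh1l1* (ENSMUSG00000030088, chromosome 6, 90550768 to 90599171) an enzyme of folate metabolism. *Apoe* (ENSMUSG00000002985, chromosome 7, 19696244 to 19701310) encodes the main lipid carrier of the brain. *Sox9* (ENSMUSG00000000567, chromosome 11, 112782210 to 112787757) encodes a transcription factor that starts gliogenesis. The annotation places a noncoding RNA gene over part of *Aqp4*, *Aldh1l1*, *Slc1a2*, and *Glul*. The strand setting of the counting is not given in the sources used here, so reads of these pairs may not be fully separated.

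Libraries held 21513783 to 30063352 counted reads. The lowest count of any member was 110, for *S100b* in WT female 5E, where counting error alone gives about 18.7% either way (95%). Each animal's label carries the letter D or E, whose meaning neither the labels nor the study's methods give. E marks 1 of 4 WT males, 2 of 4 *Kdm5c*-KO males, 2 of 4 WT females, and 3 of 4 *Kdm5c*-HET females, so in both sexes more mutants than WT animals carry it. Some libraries stood apart in *Ttr*, the abundant transcript of the choroid plexus. WT males 2D and 5D and WT females 1D and 3D had 5380, 5849, 5389, and 5577 *Ttr* counts. *Kdm5c*-HET females 8E and 9E had 2131 and 1361, and the other 10 animals 6 to 125. The calls and the larger differences that moved without these libraries are given with and without them.

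Levels are in CPM, that is, counts scaled to a common library total after TMM normalization. As CPM is not corrected for transcript length, levels of different genes were not ranked. All 10 genes were detected in every animal, at 110 counts or more. Over the 16 animals *Slc1a3* varied least, its highest level being 1.21 times its lowest, and *S100b* most, at 2.68 times. *Aldh1l1* varied by 1.23 times, *Sox9* by 1.27, *Glul* by 1.35, *Aqp4* by 1.42, *Aldoc* by 1.47, *Apoe* by 1.52, *Slc1a2* by 1.61, and *Gfap* by 1.85.

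**Figure D1:**
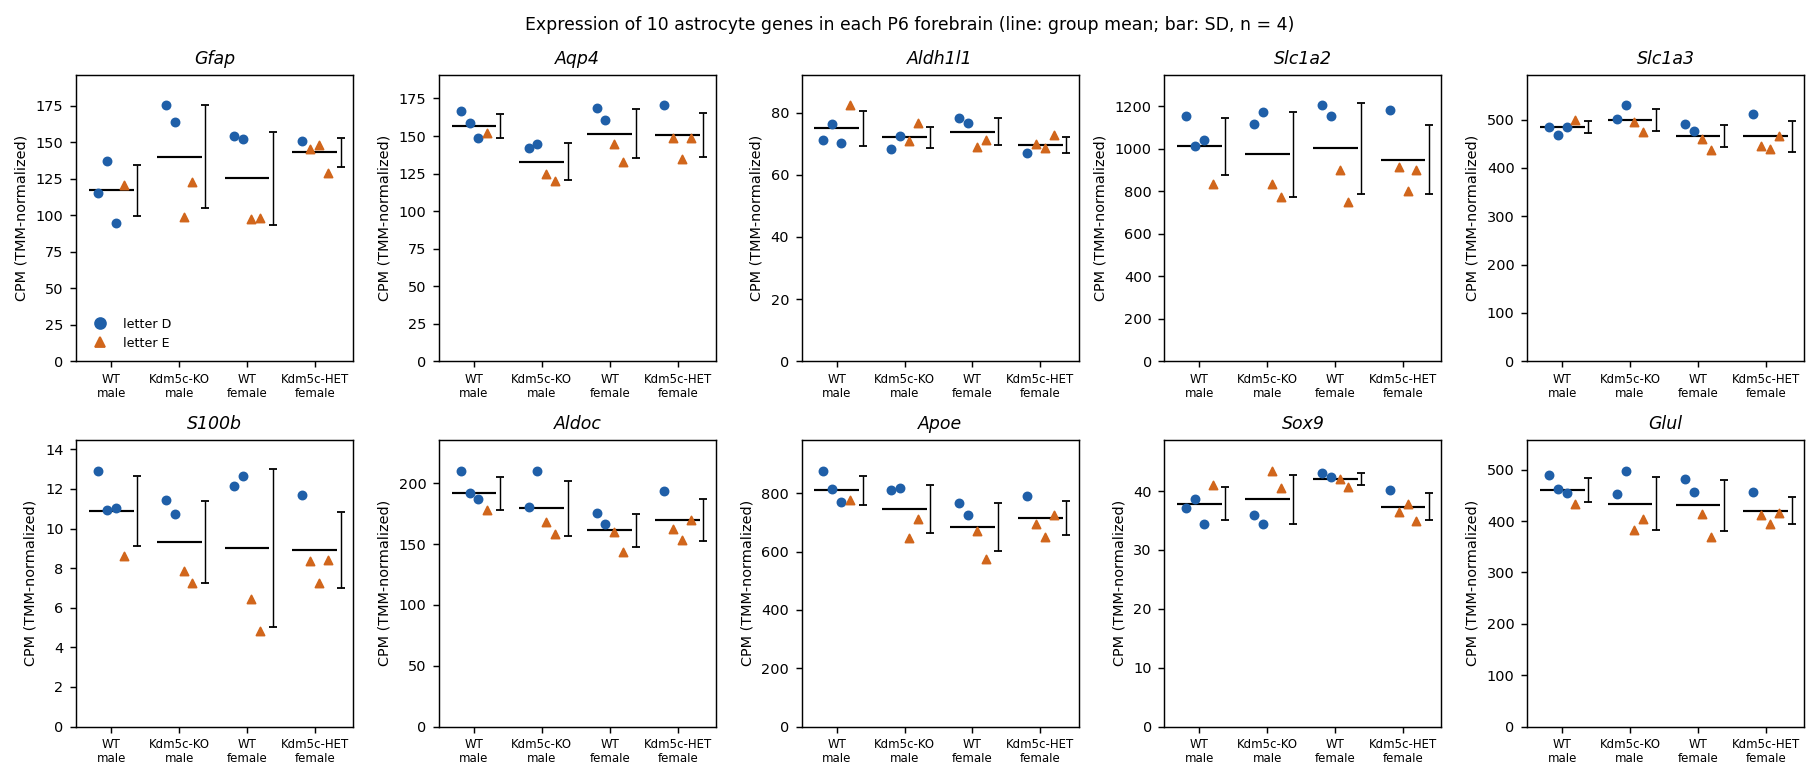
Each panel plots one gene's level in CPM (y axis, from 0) in the 4 animals of each group (x axis), with circles for animals of letter D, triangles for letter E, a line for the group mean, and a bar for the SD (n = 4). For *Slc1a2*, *S100b*, and *Glul* all triangles lie below all circles, whatever the group. The group means of these genes differ by less than the means of D and E do.

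The first comparison asked whether loss of *Kdm5c* changed these genes in males. None of the 10 was called in *Kdm5c*-KO against WT males at an adjusted p-value of 0.1 (edgeR quasi-likelihood test), where 5.24% of all genes tested were called. Before adjustment 1 member had a p-value under 0.05 in that test, beside 2939 of the 17866 genes tested. DESeq2 called 1, *Aqp4*, beside 5.95% of the genes to which it gave an adjusted p-value. Of the 10 log2 fold changes, 7 were negative and 3 positive. Their median was -0.07, beside -0.01 over all genes tested.

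*Aqp4*, the endfoot water channel, stood at 166.7, 158.8, 148.5, and 151.8 CPM in WT males 2D, 5D, 7D, and 1E. In *Kdm5c*-KO males 4D, 6D, 2E, and 3E it stood at 142.3, 144.6, 124.7, and 120.3 CPM. Every knockout animal was thus below every WT male, and within the knockout group both E animals were below both D animals. Among all genes tested, 8.91% likewise did not overlap between these groups. The log2 fold change was -0.24 (SE 0.08), a fold of 0.85, with an adjusted p-value of 0.115. The exact two-sided permutation test of the CPM gave p = 0.0286, the smallest that 4 animals against 4 allow. With the letter in the fit, *Aqp4* was called in this comparison (log2 fold change -0.19, adjusted p-value 0.0154), 1 of 10 members beside 8.22% of all genes. It was also called by DESeq2 (0.0771), in a fit of the 8 males alone (0.0972), and without the filter on low counts (0.00292). The 2 WT males with the highest *Aqp4*, 2D and 5D, were those with over 5000 *Ttr* counts. Without both, the log2 fold change was -0.18 and the adjusted p-value 0.63; the part of these libraries in the result was not tested further.

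*Gfap*, the filament gene, had the largest positive value in males. It stood at 115.3, 137.2, 94.75, and 120.5 CPM in WT males 2D, 5D, 7D, and 1E, against 175.3, 163.7, 98.95, and 122.8 CPM in *Kdm5c*-KO males 4D, 6D, 2E, and 3E. Knockouts 4D and 6D lay above all WT males, and 2E and 3E lay within their range. The log2 fold change was 0.26 (SE 0.16, adjusted p-value 0.465), and 0.32 (SE 0.12, 0.118) with the letter in the fit. The value of 0.26 became 0.14 when knockout 4D was left out and 0.40 when knockout 2E was, and neither fit called it. Of the alternatives run, 1 called it, the fit of all genes with any count (0.0127).

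The transporters and the synthetase overlapped between male groups. *Slc1a2* averaged 1010 ± 132 CPM (SD, n = 4) in WT and 973 ± 200 CPM in *Kdm5c*-KO males. *Slc1a3* averaged 484.3 ± 12.3 and 499.8 ± 22.7 CPM, and *Glul* 460.1 ± 23.8 and 434.2 ± 51.7 CPM. The SDs were wider in the knockouts, where the D and E animals formed separate pairs for *Slc1a2* and *Glul*. Their log2 fold changes of -0.05, 0.05, and -0.08 had 95% intervals of -0.35 to 0.24, -0.05 to 0.14, and -0.24 to 0.07. The metabolic genes *Aldoc* (-0.10, SE 0.08) and *Aldh1l1* (-0.06, SE 0.06), the lipid carrier *Apoe* (-0.12, SE 0.08), *S100b* (-0.23, SE 0.24), and *Sox9* (0.03, SE 0.07) also overlapped, with adjusted p-values of 0.529 to 0.89.

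Other glial and neural genes that the study listed, and that could thus be matched by name, were read beside these. Of 41 further astrocyte markers none could be matched. Of 10 radial glia genes 1 could, the filament *Nes*, which was higher in *Kdm5c*-KO males (log2 fold change 0.37, adjusted p-value 0.0824). Of 14 genes of reactive astrocytes 1 could, the MHC class I gene *H2-D1*, which was higher in mutants of both sexes (0.46, 1.09e-04 in males and 0.29, 0.0497 in females). Among the oligodendrocyte genes matched, *Enpp6* was not called in *Kdm5c*-KO males (-0.79, 0.118). Of 12 choroid plexus genes 3 could: *Ttr* (-5.76, 0.0643), *Aqp1* (-2.0, 0.0642), and *Igfbp2* (-0.24, 0.0394) were lower in *Kdm5c*-KO males. For *Ttr* the difference lay in WT males 2D and 5D, at 201.1 and 201.5 CPM, whereas WT males 7D and 1E stood at 5.60 and 0.277 CPM and the knockouts at 1.59 to 2.21 CPM. Among the neuronal genes matched, *Rbfox3* was lower (-0.19, 0.0642). Without WT males 2D and 5D, *H2-D1* was still called (0.48, 0.00377), whereas *Nes* (0.32, 0.519), *Ttr* (-0.64, 0.965), *Aqp1* (-0.87, 0.767), *Igfbp2* (-0.17, 0.488), and *Rbfox3* (-0.14, 0.554) were not. With the letter in the fit of all animals, *Enpp6* was called in males (-0.67, 0.0563), and the others named here kept their male calls, with adjusted p-values of 1.02e-05 for *H2-D1* to 0.074 for *Ttr*. As the study picked these genes on the same animals, their directions are not independent evidence.

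In females, none of the 10 members was called in *Kdm5c*-HET against WT animals, where 0.509% of all genes were called. One unadjusted edgeR p-value among the members was under 0.05, beside 1159 of the 17866 genes tested. DESeq2 called none, beside 0.725% of its genes with an adjusted p-value. With the letter in the edgeR fit none was called, where 0.879% of all genes were. In that fit 4 members, *Gfap*, *Aldoc*, *Apoe*, and *Sox9*, had an unadjusted p-value under 0.05. The number of all genes with such a p-value there was not counted. In the fit without the letter, the median log2 fold change of the members was -0.02, beside 0.00 over all genes, with 7 negative and 3 positive.

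The lowest value in females was that of *Sox9*, the gliogenic factor. It stood at 43.07, 42.32, 41.98, and 40.75 CPM in WT females 1D, 3D, 4E, and 5E, and at 40.25, 36.37, 37.75, and 34.96 CPM in *Kdm5c*-HET females 9D, 6E, 8E, and 9E. All *Kdm5c*-HET females were below all WT females, as 4.47% of all genes were or were above them. The gap between 40.25 and 40.75 CPM is narrow, and the *Kdm5c*-HET animal nearest to WT was the only one of letter D. The log2 fold change was -0.17 (SE 0.07), a fold of 0.89, with an unadjusted p-value of 0.0246, an adjusted p-value of 0.639, and an exact permutation p of 0.0286. With the letter in the fit the values were -0.19 (SE 0.07) and 0.355.

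*Gfap* stood at 154.1, 151.9, 97.25, and 98.14 CPM in WT females 1D, 3D, 4E, and 5E, and at 150.5, 145.3, 147.8, and 128.8 CPM in *Kdm5c*-HET females 9D, 6E, 8E, and 9E. The WT females fell into a high pair of letter D and a low pair of letter E, and all *Kdm5c*-HET females, E or D, lay between these pairs. The log2 fold change was 0.19 (SE 0.16, adjusted p-value 0.968), and 0.31 (SE 0.12, 0.399) with the letter in the fit. Without the 4 *Ttr*-rich libraries, which leaves only WT females 4E and 5E, it was 0.55 (0.389). The glutamate genes changed little, with log2 fold changes of -0.08 for *Slc1a2* (95% interval -0.38 to 0.22), 0.00 for *Slc1a3* (-0.10 to 0.09), and -0.04 for *Glul* (-0.19 to 0.12). *Aqp4*, which was lower in all knockout males, differed by -0.01 in females (-0.16 to 0.14). *Aldh1l1* differed by -0.09, *Aldoc* by 0.07, and *Apoe* by 0.06. With the letter in the fit, the values were -0.10 (SE 0.05, adjusted p-value 0.666) for *Aldh1l1*, 0.13 (SE 0.05, 0.435) for *Aldoc*, and 0.12 (SE 0.05, 0.511) for *Apoe*. *S100b* differed by -0.03, but by 0.67 (unadjusted p = 0.00849, adjusted p-value 0.506 by edgeR) without the 4 *Ttr*-rich libraries, and the WT females left there, 4E and 5E, had the lowest *S100b* of all animals.

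Whether the male and female genotype effects differed was tested by their interaction. No member was called, of 0.0392% of all genes, and none had an unadjusted edgeR p-value under 0.05, beside 1138 of the 17866 genes tested. DESeq2 called none, beside 0.143% of its genes with an adjusted p-value. For *Aqp4* the male effect minus the female effect was -0.23 (SE 0.11, unadjusted p = 0.0521, adjusted p-value 0.777 by edgeR). For *Sox9* it was 0.20 (SE 0.10, unadjusted p = 0.0576, adjusted p-value 0.777 by edgeR). With the letter in the fit no member was called for the interaction, beside 24 of 17866 genes, and the lowest adjusted p-value was 0.203. In that edgeR fit 4 members had an unadjusted p-value under 0.05, *Aqp4*, *Aldoc*, *Apoe*, and *Sox9*. The number of all genes with such a p-value there was not counted, so these 4 cannot be set against it. For *S100b* the interaction was -0.20 over all animals and -0.74 (adjusted p-value 0.744) without the *Ttr*-rich libraries. A difference between the sexes in the genotype effect was thus not shown for any member.

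**Figure D2:**
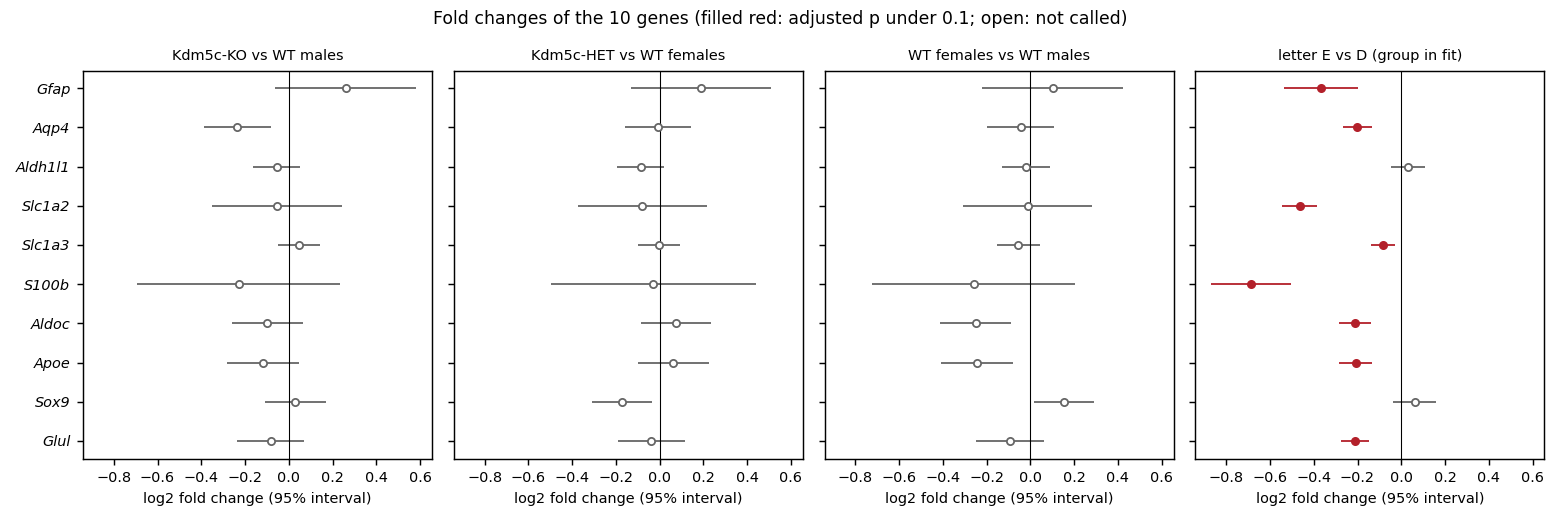
Points are log2 fold changes and bars approximate 95% intervals (x axis) of the 10 genes (y axis) in 4 comparisons, with filled red points where the adjusted p-value is under 0.1. The 3 left panels hold no called gene, and in the right panel, E against D, 8 of 10 genes are called and all 8 lie below 0.

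The WT animals were then compared between sexes. The same WT animals serve as the controls above, so these values are not independent of the genotype comparisons. None of the 10 genes was called, where 5% of all genes were. An unadjusted edgeR p-value under 0.05 was found for 3 members, beside 3241 of the 17866 genes tested. DESeq2 called 2, *Aldoc* and *Apoe*, beside 13.4% of its genes with an adjusted p-value. *Aldoc*, the glycolytic enzyme, stood at 210.1, 191.7, 187.2, and 178.0 CPM in WT males 2D, 5D, 7D, and 1E and at 175.2, 166.8, 159.7, and 143.1 CPM in WT females 1D, 3D, 4E, and 5E. *Apoe* stood at 878.2, 814.9, 771.6, and 776.8 CPM in the same males and at 766.4, 725.8, 670.1, and 575.9 CPM in the same females. For both genes every WT female was below every WT male, as 10.6% of all genes separated in one direction or the other, and in females the E animals were the lower pair. The log2 fold changes were -0.25 (SE 0.08, adjusted p-value 0.114) for *Aldoc* and -0.24 (SE 0.08, 0.127) for *Apoe*, each with an exact permutation p of 0.0286. With the letter in the fit both were called (-0.20 and -0.20, adjusted p-values 0.0248 and 0.0273), 2 of 10 members beside 9.4% of all genes. Without WT males 2D and 5D, the *Ttr*-rich ones, the values were -0.18 and -0.18 with adjusted p-values of 0.528 and 0.54. WT females 1D and 3D were as rich in *Ttr*. Leaving them out as well left WT females 4E and 5E against WT males 7D and 1E, so sex and letter are mixed there. The values were then -0.27 (0.29) for *Aldoc* and -0.31 (0.212) for *Apoe*. *S100b*, at -0.26 over all animals, was at -0.81 (0.188) there. *Sox9* differed the other way, with 37.8 ± 2.8 CPM in the WT males and 42.0 ± 0.97 CPM in the WT females (log2 fold change 0.15, SE 0.07, adjusted p-value 0.257), and the groups did overlap. The other 7 genes had adjusted p-values of 0.571 to 0.978.

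All animals were also compared by the letter of the label. With the 4 group means kept in the fit, 8 of 10 were called between E and D, all lower in E. Of all genes tested 23.6% were called and 12% were called lower in E. The median log2 difference was -0.21 in the members and 0.01 over all genes. The summed CPM of the 10 genes was 3299 to 3654 in the 8 D animals and 2621 to 3125 in the 8 E animals, without overlap. As the letters are not described, litter, collection, and handling cannot be told apart in these differences.

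The glutamate genes differed by unequal amounts. *Slc1a2* stood at 1153, 1012, 1041, 1116, 1170, 1204, 1154, and 1180 CPM in the D animals (WT males 2D, 5D, and 7D, *Kdm5c*-KO males 4D and 6D, WT females 1D and 3D, and *Kdm5c*-HET female 9D). In the E animals it stood at 834.3, 835.3, 770.2, 900.8, 746.7, 911.8, 799.2, and 900.9 CPM (WT male 1E, *Kdm5c*-KO males 2E and 3E, WT females 4E and 5E, and *Kdm5c*-HET females 6E, 8E, and 9E). Every E animal was below every D animal. The log2 difference was -0.46 (SE 0.04, adjusted p-value 2.38e-07), a fold of 0.73, and ran from -0.35 in WT males to -0.52 in WT females. *Glul*, the synthetase, ranged from 451.9 to 498.4 CPM in D (median 459.7) and from 370.0 to 433.0 CPM in E (median 408.1), again without overlap (-0.21, SE 0.03, 6.79e-05). *Slc1a3*, the early transporter, ranged from 468.6 to 529.5 CPM in D (median 488.3) and from 437.4 to 498.7 CPM in E (median 462.4), so the letters overlapped. Its difference was small but called (-0.08, SE 0.03, 0.0437), and WT male 1E lay above the WT males of letter D.

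*S100b*, the calcium-binding protein, differed most. It ranged from 10.75 to 12.93 CPM in D (median 11.6; 246 to 370 counts) and from 4.82 to 8.63 CPM in E (median 7.57; 110 to 208 counts). Every E animal was below every D animal, and the log2 difference was -0.69 (SE 0.09, adjusted p-value 1.81e-05), a fold of 0.62. Of all genes tested 2.81% did not overlap between the letters, against 3 of the 10 members, *Slc1a2*, *S100b*, and *Glul*. WT females 4E and 5E were the lowest animals, at 6.42 and 4.82 CPM.

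*Aqp4* ranged from 142.3 to 170.5 CPM in D and from 120.3 to 151.8 CPM in E (-0.20, SE 0.03, adjusted p-value 2.14e-04). *Aldoc* ranged from 166.8 to 210.4 CPM in D and from 143.1 to 178.0 CPM in E (-0.21, SE 0.04, 3.66e-04). *Apoe* ranged from 725.8 to 878.2 CPM in D and from 575.9 to 776.8 CPM in E (-0.21, SE 0.04, 4.64e-04). These 3 genes overlapped over all animals, but all were lower in E in the mean of each of the 4 groups. *Gfap* was lower in E (-0.37, SE 0.09, adjusted p-value 0.00449) in 3 of 4 groups. It was not lower in WT males, where the only E animal stood at 120.5 CPM and the D animals averaged 115.7 CPM.

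*Aldh1l1* and *Sox9* were not called. *Aldh1l1*, the folate enzyme, averaged 72.5 ± 4.1 CPM in D and 72.6 ± 4.7 CPM in E (SD, n = 8; log2 difference 0.03, 95% interval -0.05 to 0.11). *Sox9* averaged 38.3 ± 3.4 and 39.6 ± 2.9 CPM (0.06, -0.04 to 0.16). The exact test with letters permuted within groups, whose smallest possible p is 0.00174, gave that value for *Slc1a2*, *S100b*, *Aldoc*, and *Glul*. It gave 0.00521 for *Aqp4* and *Apoe*, 0.0226 for *Slc1a3*, 0.026 for *Gfap*, 0.274 for *Sox9*, and 0.469 for *Aldh1l1*.

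The letter difference was also read within sex and genotype. In the 8 males alone 7 genes were called, beside 11.3% of all genes, *Gfap* (adjusted p-value 0.13) and *Slc1a3* (0.722) were not, and *Sox9* was higher in E (log2 difference 0.21, 0.0517). In the 8 females alone the same 8 genes were called as over all animals, beside 14.1% of all genes. In the 8 WT animals 6 were called, without *Gfap* (0.115) and *Slc1a3* (0.678), beside 7.69% of all genes. In the 8 mutants 8 were called, beside 12.3%. Without the 4 libraries of over 5000 *Ttr* counts, all of letter D, 6 were called beside 12.9% of all genes, and *Gfap* (-0.24, 0.181) and *Slc1a3* (-0.09, 0.133) were not. There the differences of *Slc1a2* and *S100b* were -0.44 (8.58e-05) and -0.51 (0.00285). Leaving out *Kdm5c*-HET female 9D ended the call of *Slc1a3* (0.203), and every other fit that left out 1 animal called the same 8 genes.

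Several genes of other cell types moved with the letter. *Enpp6* was lower in E (-0.56, adjusted p-value 0.0111), as were *Aqp1* (-1.28, 0.00447), *Ttr* (-3.19, 0.091), and *Rbfox3* (-0.12, 0.00625). *Nes* (0.31, 1.22e-04) was higher in E, whereas *H2-D1* (-0.08, 0.258) and *Igfbp2* (-0.07, 0.31) were not called. *Nes* ranged from 33.6 to 39.3 CPM in D and from 39.0 to 57.4 CPM in E. Without the 4 *Ttr*-rich libraries *Nes* was still called (0.35, 0.002), whereas *Enpp6* (-0.27, 0.346), *Aqp1* (-0.47, 0.417), *Rbfox3* (-0.10, 0.109), and *Ttr* (1.37, 0.539) were not. The part of these other cell types in the difference of the members was not tested. Total counts moved little with the letter, with medians of 26000211 in D and 24167386 in E, and with log2 total count in the fit the same 8 members were called, beside 18.4% of all genes.

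The spread within groups was smaller with the letter in the fit. The biological coefficient of variation, the spread between animals of a group beyond counting error, was 14.9% for *Slc1a2* and fell to 5.61% once the letter was in the fit. For *S100b* it fell from 23.2% to 10.7%, for *Gfap* from 16.2% to 11.3%, and for *Glul* from 8.07% to 4.49%. *Aldh1l1* (5.67% and 5.15%) and *Sox9* (6.91% and 6.33%) kept most of theirs. The median over all genes was 8.95% and 7.72%.

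The ratio of *Slc1a2* to *Slc1a3* counts compares the later with the earlier transporter inside each library, so the library's total does not enter it. It depends on transcript length and is compared only between animals. It was 2.38, 2.16, 2.15, and 1.67 in WT males 2D, 5D, 7D, and 1E, and 2.23, 2.21, 1.69, and 1.62 in *Kdm5c*-KO males 4D, 6D, 2E, and 3E. In WT females 1D, 3D, 4E, and 5E it was 2.45, 2.42, 1.96, and 1.71, and in *Kdm5c*-HET females 9D, 6E, 8E, and 9E it was 2.31, 2.05, 1.82, and 1.93. The lowest D animal, at 2.15, was above the highest E animal, at 2.05. The log2 ratio averaged 1.19 in D and 0.85 in E. For the test, each group's mean was first taken from its animals. The E mean minus the D mean was then -0.33 (exact permutation p = 0.00174, 0.00694 after adjustment over 4 comparisons). As the letters are unevenly spread over groups, this step makes the value smaller than the difference within groups. The log2 ratio differed by -0.11 between *Kdm5c*-KO and WT males, -0.06 between *Kdm5c*-HET and WT females, and 0.03 between WT females and males (exact permutation p of 0.571, 0.686, and 0.857). *Slc1a2* thus differed between letters by more than *Slc1a3* did.

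**Figure D3:**
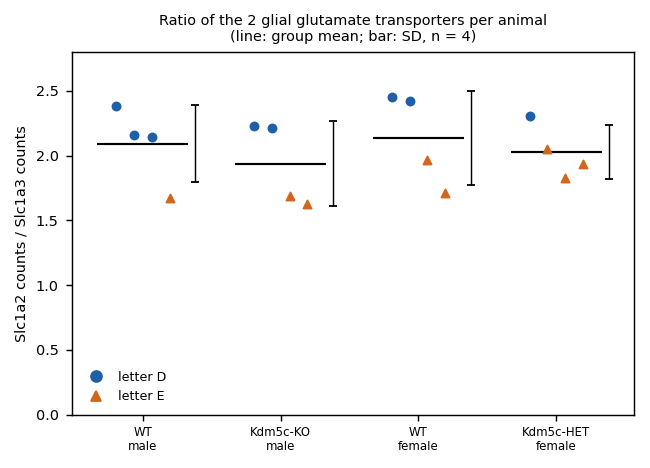
The ratio of *Slc1a2* to *Slc1a3* counts (y axis, from 0) is plotted for each animal by group (x axis), with circles for D, triangles for E, a line for the mean, and a bar for the SD (n = 4). All D animals lie at 2.15 or above and all E animals at 2.05 or below.

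The genes largely rose and fell together from animal to animal. With the group means removed, Pearson's r of log2 CPM over the 16 animals had a median of 0.72 over the 45 pairs of genes, ran from -0.35 to 0.96, and was positive in 36 pairs. The highest was that of *Apoe* and *Glul*. The negative values all involved *Sox9* or *Aldh1l1*, the genes not called between letters. With the letter removed as well, the median was 0.47 and 41 pairs were positive, and *Apoe* and *Glul* still had the highest value, 0.88. *Gfap*, which had r of 0.66 with *Slc1a2* before, had 0.10 after, and 0.67 with *Aldh1l1*. These values are descriptions, since the genes share libraries, normalization, and litters.

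**Figure D4:**
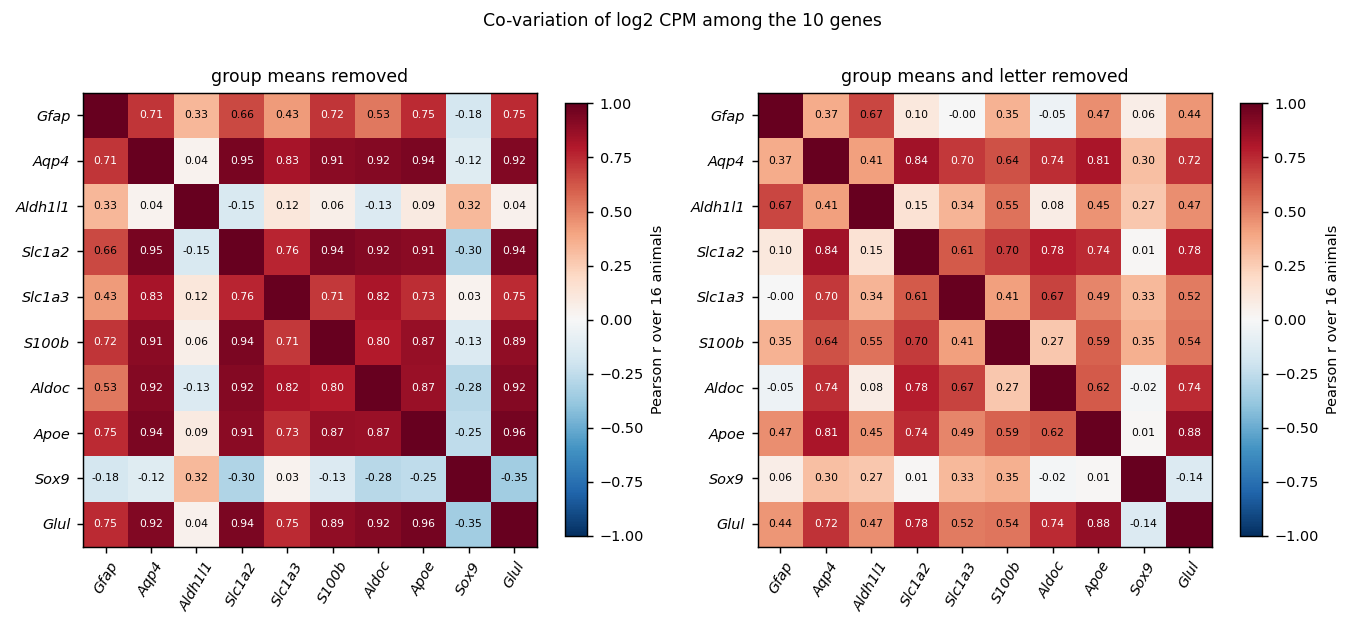
Cells give Pearson's r of log2 CPM between 2 of the 10 genes (both axes) over 16 animals, from -1 (blue) to 1 (red), with group means removed (left) and with group means and letter removed (right). *Sox9* and *Aldh1l1* form the pale rows on the left, and the block of high values among *Aqp4*, *Slc1a2*, *Aldoc*, *Apoe*, and *Glul* remains on the right.

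Among 1092 other genes tested that could be named, those most like the members' mean, in r over 16 animals with group means removed, included *Wscd2* (0.94), *Bcas1* (0.92), *Camta2* (0.92), and *Bsg* (0.91). *Bcas1* is a gene of the oligodendrocyte lineage, and *Bsg* encodes basigin, a partner of lactate transporters. These 4 were lower in E, *Bcas1* by 0.50 on the log2 scale (-0.50, adjusted p-value 1.19e-04) and *Bsg* by the least (-0.10, 0.0037). The genes that could be named were those the study called in these animals, so better matches among the other genes were not looked for.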

How the data were processed

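Forebrain poly(A) RNA of 16 mice was sequenced as paired-end reads with a directional kit. Per the study's methods, the authors aligned reads to mm10 with STAR 2.5.3a, removed duplicates, kept unique reads, and counted them per gene with featureCounts (Subread 1.5.0). The deposited values are raw counts, read as whole numbers. Here they were fitted in R 4.3.3 with edgeR 4.0.16 (filterByExpr by group, TMM, glmQLFit over all 16 animals, glmQLFTest), and p-values were adjusted by Benjamini-Hochberg over 17866 genes, with a threshold of 0.1. The letter was tested beside the group means. Log2 CPM used a prior count of 2, and intervals are approximate. DESeq2 1.42.0, other filters and normalization, subsets of animals, and leaving out each animal were alternatives. The members and lists were chosen with earlier results of these data known. All 10 members were named by role. Listed genes were named where the study's list of changed genes pairs them with an identifier, together with the 5 genes most like the members. Some genes these rules pick are not reported here. Animals are the replicates, and some share a litter that is not given per animal. Per the methods, RNA extraction, libraries, and sequencing were run as 1 batch. Sequences were not used here. On simulated counts, log2 changes of 0.3 were recovered in 39% of changed genes for males (17605 genes) and 60.5% for the letter (17613 genes). Of the calls, 11.4% and 12.9% were false. The simulated spread came from the fit with the letter, and the male case held no letter difference. The male test itself was run without the letter, where the median spread was 8.95% and not 7.72%. The 39% may thus be too high for that test.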

Additional observations from a re-analysis of the deposited data

Results flagged for a closer look

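*Sox9* was the only member whose difference between E and D went opposite ways in the sexes in every group, and it was singled out for that. In WT males the E animal stood at 41.03 CPM and the D animals averaged 36.7 CPM, and in *Kdm5c*-KO males the means were 42.0 and 35.1 CPM. In both male groups every E animal was above every D animal. In WT females the means were 41.4 CPM in E and 42.7 CPM in D, and in *Kdm5c*-HET females 36.4 and 40.3 CPM, with every E animal below every D animal. Each group holds only 1 animal against 3, or 2 against 2, by letter. How many of all genes separate in this way was not counted, so the separation alone does not set *Sox9* apart. The log2 difference E minus D was 0.22 in males and -0.09 in females, so that the female minus the male difference was -0.304 (SE 0.08, unadjusted p = 7.20e-04, adjusted p-value 0.376 by edgeR over all genes). The difference therefore did not pass the threshold over all genes. No animal lay far from the others of its group in any of the 40 sets of 4 values (10 genes in 4 groups).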

How the results depend on the processing

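No member was called between *Kdm5c*-HET and WT females or for the interaction under any alternative run. The number called between letters stayed at 6 to 8. In males, 1 member was called by DESeq2, beside 5.95% of its genes with an adjusted p-value, and 1 with the letter as a covariate, beside 8.22%. In the fit of 8 animals 1 was called, beside 641 of 17010 genes. Without the filter on low counts 2 were called, beside 1279 of 35337 genes. Leaving out 1 animal gave 0 to 1, and *Aqp4* was called in 5 of 16 such fits (adjusted p-values 0.0713 to 0.309 over the 16). Those 5 fits called from 898 of 18178 to 1129 of 18183 genes. Between WT sexes, 2 were called by DESeq2, beside 13.4% of its genes with an adjusted p-value, and 2 with the letter, beside 9.4%. Without the filter 2 were called, beside 1298 of 35337 genes, and in the fit of 8 animals 1, beside 754 of 17057 genes. In this comparison 0 to 2 were called when 1 animal was left out. The 5 such fits that called a member called from 872 of 18178 to 1243 of 18183 genes. None of the values that turned sign below was called in either fit; for them the cause was not tested. With the letter as a covariate these were, in log2, *Slc1a2* in males (0.0471), *Aqp4* (0.0428), *Slc1a2* (0.0462), *Slc1a3* (0.0172), *S100b* (0.2), and *Glul* (0.0195) in females, and *Slc1a2* between WT sexes (0.0882). Letter differences turned for *Aldh1l1* (-0.0524) and *Sox9* (-0.0882) in the 8 females and *Aldh1l1* (-0.00185) in the 8 WT animals. Alternatives added after seeing the data were the fits of WT animals or mutants alone, the total count as a covariate, and both fits without *Ttr*-rich libraries. Without WT males 2D and 5D, *Slc1a2* in males (0.0535), *Glul* for the interaction (0.00633), and *Aqp4* (0.0139) and *Slc1a2* (0.0948) between WT sexes turned. Without all 4 *Ttr*-rich libraries, which leaves WT females of letter E only, these were *Slc1a2* in males (0.0531), *Aqp4* (0.122), *Slc1a2* (0.203), *Slc1a3* (0.0537), *S100b* (0.665), and *Glul* (0.0997) in females, *Gfap* (-0.169), *Aldh1l1* (-0.0682), *Slc1a2* (-0.149), and *Slc1a3* (-0.0307) for the interaction, and *Gfap* (-0.14) between WT sexes. Leaving out 1 animal gave, in males, *Slc1a2* -0.154 to 0.0432 and *Sox9* -0.0317 to 0.0823. In females it gave *Aqp4* -0.0756 to 0.0434, *Slc1a2* -0.204 to 0.0184, *Slc1a3* -0.0535 to 0.0207, *S100b* -0.233 to 0.175, *Apoe* -0.0144 to 0.119, and *Glul* -0.107 to 0.0185. For the interaction it gave *Gfap* -0.0494 to 0.207, *Slc1a2* -0.0716 to 0.151, *S100b* -0.402 to 0.00611, and *Glul* -0.115 to 0.0249. Between WT sexes it gave *Gfap* -0.014 to 0.205, *Aqp4* -0.102 to 0.0123, *Aldh1l1* -0.0524 to 0.0256, and *Slc1a2* -0.115 to 0.104, and between letters *Aldh1l1* -0.00986 to 0.0559. The log2 ratio of *Slc1a2* to *Slc1a3* ran from -0.165 to 0.00834 for *Kdm5c*-HET against WT females and from -0.0761 to 0.129 between WT sexes. With the letter as a covariate, only the listed genes that could be matched were read, as single genes; counts over whole lists were not run, since most of their members could not be matched to identifiers. No paired analysis was possible because the numbers in the labels name animals and do not pair them across groups. Depth limits *S100b* most, at 110 to 370 counts.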
